A study of Drosophila melanogaster with 3 samples.

Results

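Schnurri binding was examined at the 10 Drosophila genes dpp, gbb, scw, sog, tsg, tld, cv, cv-2, magu and srw, which encode BMP ligands and the secreted proteins that move, release or block them. The genes were taken as a fixed list, and a peak belongs to a gene when its summit lies inside the annotated gene span or within 10 kb of either end. All 10 genes were found among 13945 protein-coding genes. In their windows fell 16 of 3586 reproducible peaks and 111 of 30000 pooled peaks and background regions. The data are chromatin immunoprecipitation with sequencing (ChIP-seq) on whole mixed-sex embryos collected from 0 to 24 h, from a transgenic line that makes Schnurri tagged with GFP at its C terminus, precipitated with an antibody to GFP. There is 1 group of 3 biological replicates, so the data describe where the tagged protein was found and how well replicates agree, with no contrast between conditions. A signal from whole embryos does not tell apart binding in fewer cells and weaker binding per cell, and each pooled or reproducible value rests on all 3 replicates together.

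Schnurri is a large zinc finger protein that joins the Smad proteins Mad and Medea on DNA when BMP signalling is active. In Drosophila this complex is known for silencing target genes, brk foremost. BMP ligands of the fly act as dimers, and their reach is set outside the cell: Sog and Tsg bind the ligand and carry it, the protease Tld cuts Sog and frees the ligand, and related proteins adjust signalling in later tissues such as the wing. Some of the genes for these proteins are themselves controlled by BMP signalling.

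The sequences at the strongest peak of 6 gene windows are shown first, because they are the stretches of DNA on which the values below rest. They span up to 100 bp on either side of the summit on the plus strand of Release 6 (dm6), with untranslated sequence left out, and peaks on a single chromosome arm, which holds gbb, cv-2 and magu, are given by position only. Capitals mark matches to any of 6 motifs searched on both strands, and lower case the rest. The first 3 are reproducible peaks. The cv peak, in intergenic DNA, holds a match to the Mad site GCCGNC, while the intronic peaks of dpp and sog hold no match to any of the 6 motifs.
cv downstream peak, chrX:5696411-5696611: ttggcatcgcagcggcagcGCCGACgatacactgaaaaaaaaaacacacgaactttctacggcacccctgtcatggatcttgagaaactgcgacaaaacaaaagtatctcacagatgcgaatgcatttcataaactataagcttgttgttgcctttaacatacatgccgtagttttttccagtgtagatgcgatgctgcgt
dpp intronic peak, chr2L:2433590-2433790: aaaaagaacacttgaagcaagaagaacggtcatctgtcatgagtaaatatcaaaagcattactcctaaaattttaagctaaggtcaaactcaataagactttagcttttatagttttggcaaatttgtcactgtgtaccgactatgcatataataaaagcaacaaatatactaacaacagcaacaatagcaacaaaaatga
sog intronic peak, chrX:15622960-15623160: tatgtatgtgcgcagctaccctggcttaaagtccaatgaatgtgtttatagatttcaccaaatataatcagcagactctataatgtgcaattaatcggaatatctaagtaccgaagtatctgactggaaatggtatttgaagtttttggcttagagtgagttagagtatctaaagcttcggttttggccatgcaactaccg
The next 3 are the strongest regions of the pooled list in the windows of srw, tld and scw, which have no reproducible peak. Sequence was limited to the 6 windows of highest signal on the other arms, which leaves out tsg. They ranked 3919, 11713 and 18657 by signal among the 30000 of the pooled list, so signal there was weak. A Mad site match lies just upstream of tld and a pair of overlapping Mad site matches in the scw window. The summit of that scw region lies 9126 bp outside scw, and the region was matched in replicate 1 only, at rank 14159. Among all reproducible peaks, 16.1% had a Mad site within 100 bp of the summit. The tld stretch stops short of its summit, which lies in the 5′ UTR.
srw window, chr3L:4292247-4292408: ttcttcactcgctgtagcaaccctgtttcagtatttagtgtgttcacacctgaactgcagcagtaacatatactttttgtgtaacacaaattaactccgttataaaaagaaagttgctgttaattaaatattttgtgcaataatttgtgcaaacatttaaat
tld start, chr3R:24749656-24749730: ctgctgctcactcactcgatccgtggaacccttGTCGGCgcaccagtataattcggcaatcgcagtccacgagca
scw window, chr2L:19690153-19690353: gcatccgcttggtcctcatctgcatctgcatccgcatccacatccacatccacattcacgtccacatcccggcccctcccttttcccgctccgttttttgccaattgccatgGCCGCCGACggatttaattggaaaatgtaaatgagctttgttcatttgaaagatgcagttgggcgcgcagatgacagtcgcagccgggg
The last was picked after its values were seen, as the 1 reproducible peak outside that arm that lies at a start site of a listed gene. It ends at the base before an internal transcription start site (TSS) of dpp. It holds runs of the GAGA motif (GAGAG, here read on the other strand as CTCTC, with overlapping matches) and 1 Zelda site (CAGGTA).
dpp internal promoter, chr2L:2451085-2451228: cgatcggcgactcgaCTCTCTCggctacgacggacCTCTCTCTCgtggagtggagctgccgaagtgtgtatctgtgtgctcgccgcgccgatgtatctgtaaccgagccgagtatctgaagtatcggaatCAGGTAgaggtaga

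The signal and −log10 q of a peak are the authors' own, and they are used here only to rank or describe peaks within 1 list. The authors obtained the reproducible list with the irreproducible discovery rate (IDR) procedure. It ran in signal from 91.6 to 2020 with a median of 142, and rank 1 is its strongest peak. In the pooled list its last peak had rank 3586, and the first region outside it had rank 3587 and a signal of 91.5. A reproducible peak need not rank high in each replicate. The pooled list and each replicate list hold 30000 peaks and background regions, and a replicate's top list is its 3586 peaks of highest signal. The replicates were of unequal strength, with 2385, 5289 and 7213 regions at a −log10 q of 2 or more in replicates 1, 2 and 3. Read depth is unknown. No expression was measured, so the labelled stage could not be checked against marker genes.

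Of the 10 genes, 6 had at least 1 reproducible peak in the window, which were dpp, gbb, sog, cv, cv-2 and magu, and 4 had none, which were scw, tsg, tld and srw. Over all protein-coding genes the same window held a reproducible peak at 57.7%, so the count of 6 is near the background with this window, while that share was 44.0% with a 5 kb flank, where the count was also 6. A reproducible summit within 1 kb of a TSS of the gene itself was found at dpp and magu, 2 of 10, where the share over all genes was 21.1%. Within the gene span alone the count was 4 of 10, at dpp, sog, cv-2 and magu, against 10.4% of all genes. These 4 are the longest of the list, at 31.5, 30.2, 24.4 and 11.2 kb, while the median span of all coding genes was 2.17 kb, so the shares compare genes of unlike length.

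**Figure D1:**
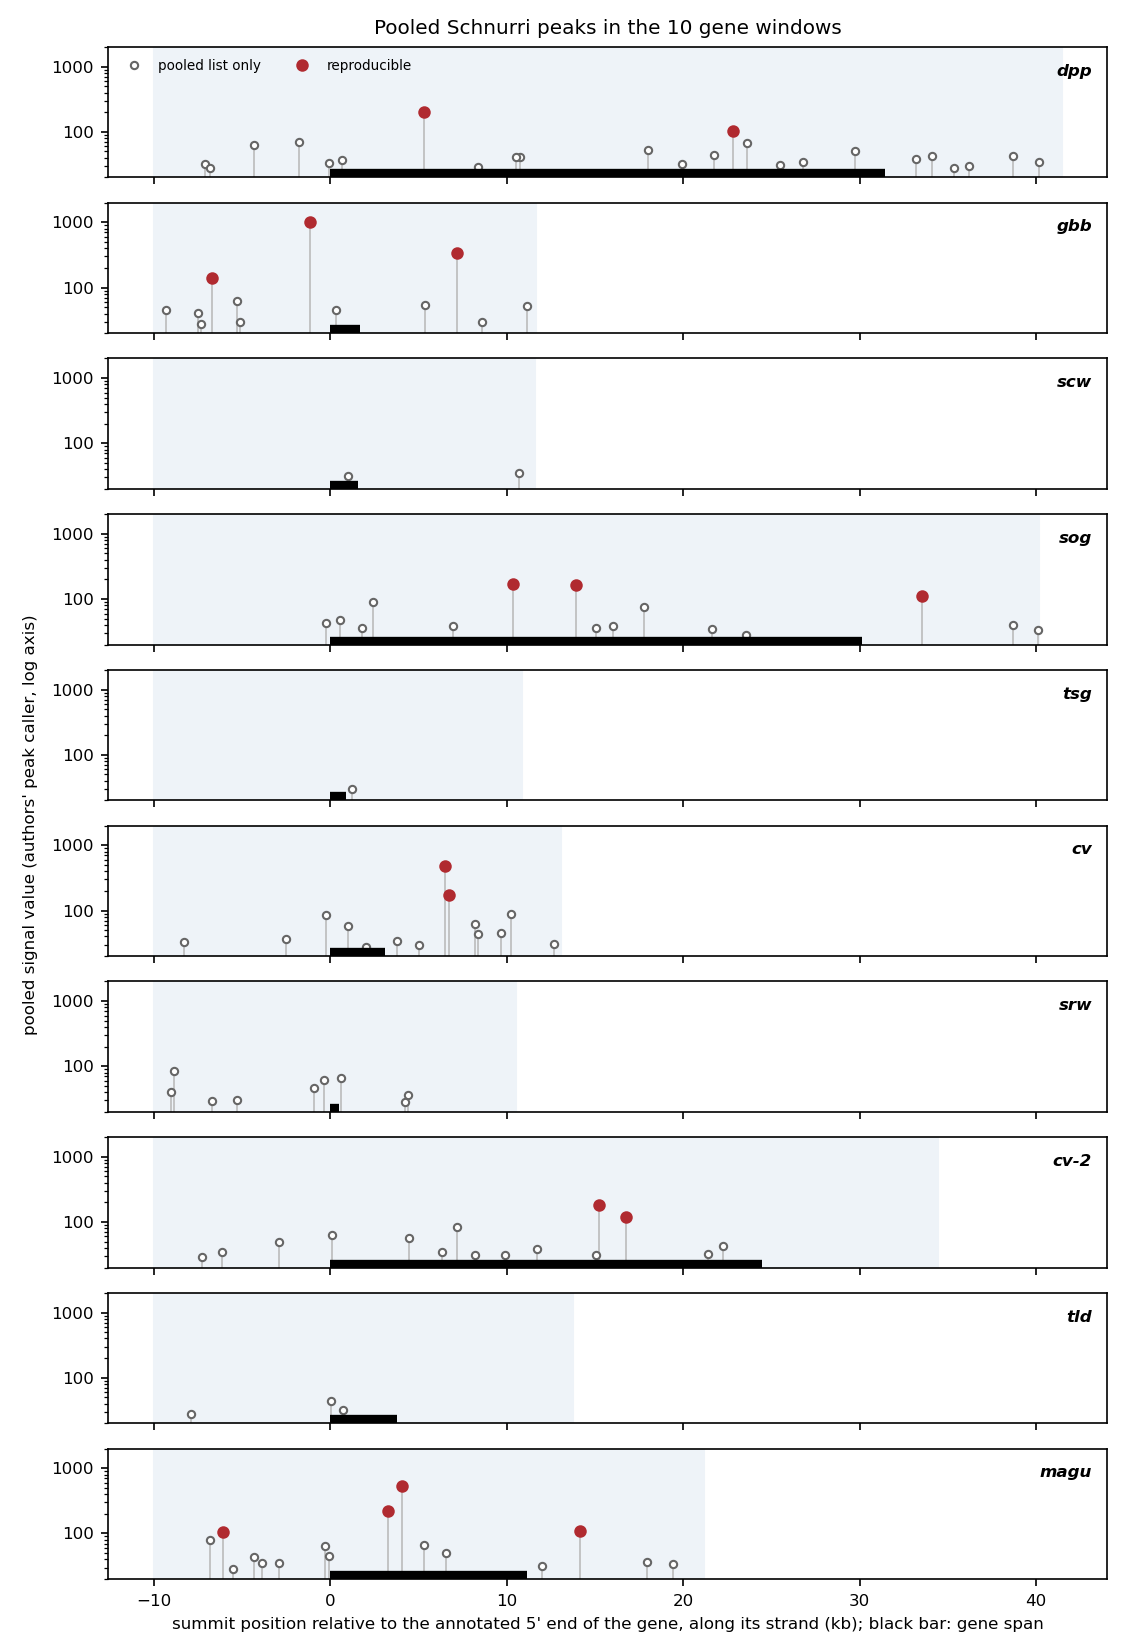
Position and signal of the 111 pooled peaks and background regions in the 10 gene windows, with position in kb from the annotated 5′ end of each gene along its strand and the authors' pooled signal on a log axis. Filled points are the 16 reproducible peaks, open points the other pooled regions, black bars the gene spans and shading the windows. The filled points of dpp and cv-2 lie inside the genes, those of gbb and cv outside them, those of sog and magu on both sides of a gene end, and scw, tsg, tld and srw have open points only.

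Among the ligand genes, dpp had peaks of its own, gbb had peaks at its neighbours and scw had almost nothing. The main BMP ligand of the fly is encoded by dpp (FBgn0000490), on the plus strand of 2L from 2428372 to 2459823. Its strongest peak, shown above, had its summit at 2433690, 5318 bp downstream of the nearest dpp TSS in an intron, with a signal of 199 and rank 1013. It ranked 850, 1423 and 1134 in replicates 1, 2 and 3, inside the top list each time. The other, at 2451185 and 44 bp upstream of an internal TSS, had a signal of 103 and rank 3017. Replicates 2 and 3 placed it at ranks 3103 and 2528, but in replicate 1 the matching region ranked 20358 with a −log10 q of 0.178. The intronic dpp peak was thus seen alike in all 3 replicates and the promoter peak in 2 of them. The pooled list held 24 summits in the window, including weak ones 90 bp upstream of the first TSS at rank 19896 and 1750 bp upstream at rank 5315.

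The gene gbb (FBgn0024234, 2R from 23851562 to 23853247, plus strand) encodes a ligand that partners Dpp and acts at the neuromuscular junction and in the wing. Its window held the strongest peak of all 10, with a signal of 1000 and rank 28, and it ranked 20, 30 and 44 in replicates 1, 2 and 3. The summit at 23850410 lay 1152 bp upstream of gbb but 109 bp from a TSS of eIF6, a factor of ribosome subunit assembly, and within 1 kb of ytr as well. The other reproducible summits of this window were also at neighbours. That at 23858770, with rank 345, lay 151 bp downstream of the TSS of bgcn, a germline differentiation gene, in its 5′ UTR. That at 23844875, with rank 1786, lay 112 bp upstream of Snap29, a membrane fusion gene. The window holds TSSs of 8 other coding genes, and the nearest pooled summit to the gbb TSS was 345 bp inside the gene, at rank 11467, with no match in replicate 1. All 3 peaks of the gbb window therefore had another gene's TSS closer.

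The third ligand gene, scw (FBgn0005590, 2L from 19699379 to 19700968, minus strand), acts with dpp on the dorsal side of the early embryo and lies inside the larger gene Lar. Its window held 2 pooled summits, the stronger at rank 18657 with a −log10 q of 0.195. Replicates 1, 2 and 3 listed 3, 1 and 0 summits there. The nearest reproducible summit lay 57730 bp outside the gene, 83 bp upstream of CG10628.

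Of the secreted modulators other than the protease, sog, cv-2 and magu carried intronic peaks, while tsg and srw had none that were reproducible. The Chordin homologue gene sog (FBgn0003463, X from 15603283 to 15633434, minus strand) had summits 3480 and 7040 bp downstream of its nearest TSS. The first, at 15623060, had a signal of 172 and rank 1299, and ranked 961, 1367 and 2004 in replicates 1, 2 and 3. The second, at 15619500, had a signal of 166 and rank 1385, and ranked 1584, 2721 and 926. Both were in the top list of every replicate, and a further intronic summit 2446 bp downstream of the first TSS fell just outside the reproducible list at pooled rank 3650. Beyond the 3′ end, a summit at 15599881 lay in intergenic DNA 3402 bp outside the gene, had rank 2653 and was in the top list of replicate 1 only. The start of sog had weak pooled signal, with pooled ranks of 10121 at 572 bp downstream and 12639 at 214 bp upstream. The summit at 572 bp ranked 3039 in replicate 1, inside its top list. It ranked 13843 in replicate 3 and had no match in replicate 2.

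Unlike sog, tsg (FBgn0003865, X from 11988062 to 11988948, minus strand), whose product binds BMPs together with Sog, was nearly empty. The 1 pooled summit of its window, at rank 24950, lay 35 bp from the TSS of gd, the gene next to it. Replicate 1 listed 8 summits in the window, the best at rank 17089, against 1 in replicate 2 and 0 in replicate 3. The tsg-related gene srw (FBgn0261952, 3L from 4282956 to 4283478, minus strand) had 9 pooled summits. Its strongest, 62 bp upstream of the TSS of CG15012 and 8830 bp upstream of srw, had a signal of 86.1 and rank 3919, close to the end of the reproducible list at rank 3586. It ranked 6740, 3861 and 4686 in replicates 1, 2 and 3, outside the top list each time. Summits 374 bp upstream and 632 bp downstream of the srw TSS had pooled ranks of 6527 and 5823, and they lay 1 bp and 29 bp from the TSSs of CG1316 and CG11583.

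The remaining tsg-related gene, cv (FBgn0000394, X from 5690002 to 5693084, plus strand), which is required for wing crossveins, had a strong pair of peaks outside the gene. The stronger, at 5696511, had a signal of 484 and rank 145, and ranked 180, 168 and 118 in replicates 1, 2 and 3. It lay in intergenic DNA 3427 bp beyond the 3′ end of cv and 1306 bp upstream of CG3149. The second summit lay at 5696757 with rank 1294, and it ranked 886 and 879 in replicates 2 and 3. In replicate 1 both summits met the same peak, so the pair was not resolved there. At the start of cv itself, a pooled summit 254 bp upstream had rank 3903 and ranked 1845, 3926 and 14950 in the replicates.

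The gene cv-2 (FBgn0000395, 2R from 21355015 to 21379464, minus strand) encodes a cysteine-rich protein that binds BMPs at the cell surface. Its summits at 21364206 and 21362715 lay in an intron, 15258 and 16749 bp from the cv-2 TSS, and both had a TSS of CG17974 nearer, at over 12 kb. The first had a signal of 183 and rank 1168, and ranked 2827, 1078 and 811 in replicates 1, 2 and 3. The second had rank 2338 and lay in the top list of replicate 1 and of replicate 3, but in replicate 2 the matching region ranked 20722. At the cv-2 TSS, a pooled summit 82 bp downstream had rank 6402 and was matched in replicate 3 only, at rank 1826 inside its top list.

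The secreted modulator magu (FBgn0262169, 2R from 10052541 to 10063712, plus strand), also called pentagone, spreads BMP signalling in the wing and is reported to be silenced there through Schnurri. It had 4 reproducible peaks, the most of the 10 windows, and the strongest peak at a listed gene's own TSS. That peak, at 10056598 and 228 bp upstream of an internal TSS, had a signal of 541 and rank 110, and ranked 265, 153 and 58 in replicates 1, 2 and 3. A second summit 993 bp upstream of the same TSS, just inside the limit of 1 kb, had a signal of 219 and rank 865, and ranked 815, 901 and 848. Both lay within the gene, so the start marked is the downstream of its 2 annotated TSSs. At the upstream TSS the pooled list gave rank 10948 at 42 bp upstream and rank 6209 at 318 bp upstream, both with no match in replicate 1. The latter summit lay 56 bp from a TSS of sel and ranked 4232 in replicate 3, outside its top list. The other reproducible summits were in the flanks, 56 bp downstream of the TSS of mRpL42, a mitochondrial ribosomal protein gene, at rank 2717, and in the gene oys at rank 2923.

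The protease gene tld (FBgn0003719, 3R from 24749731 to 24753510, plus strand) had no reproducible peak. A pooled summit 25 bp downstream of its TSS had a signal of 44.3 and rank 11713, and it ranked 23821 in replicate 1 and 12322 in replicate 3, with no match in replicate 2. The nearest reproducible summit lay 15572 bp outside the gene, 269 bp upstream of CG13631. With the flank widened to 20 kb, tld was the only gene added to the 6, and 73.4% of all genes then had a peak in the window. A pooled summit of any strength lay within 1 kb of a TSS at 8 of the 10 genes, all but scw and tsg, against 62.7% of all genes.

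At the edge of the rule, the reproducible peak farthest from its gene was that at Snap29, 6687 bp outside gbb. The first excluded lay 10858 bp outside cv, 833 bp downstream of a TSS of Tre1, at rank 2575.

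Across the 16 reproducible peaks, 10 summits lay in introns, 4 in intergenic DNA, 2 in 5′ UTRs and 0 in coding sequence. A TSS of any gene was within 1 kb of 7 of the 16, against 65.1% of all reproducible peaks. The nearest TSS was that of the listed gene for 6 and of another gene for 10. Neither the locations nor this split was counted over all reproducible peaks, so they are given without a background. The median signal of the 16 was 172 and the median GC content of the peaks was 42.2%, beside 142 and 39.5% over the whole reproducible list. Of the 16, 14 were in the top list of replicate 1, 13 in that of replicate 2 and 13 in that of replicate 3. The share of all reproducible peaks was not counted for each list alone, so these counts have no background. In the top lists of all 3 were 10 of 16, against 53.8% of all reproducible peaks, and with a match that needs an overlap of at least 50% of both peaks the number was 6. The 6 missed by at least 1 replicate were of lower pooled rank, from 1786 to 3017, and the strongest 10, down to rank 1385, were in all 3 top lists.

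**Figure D2:**
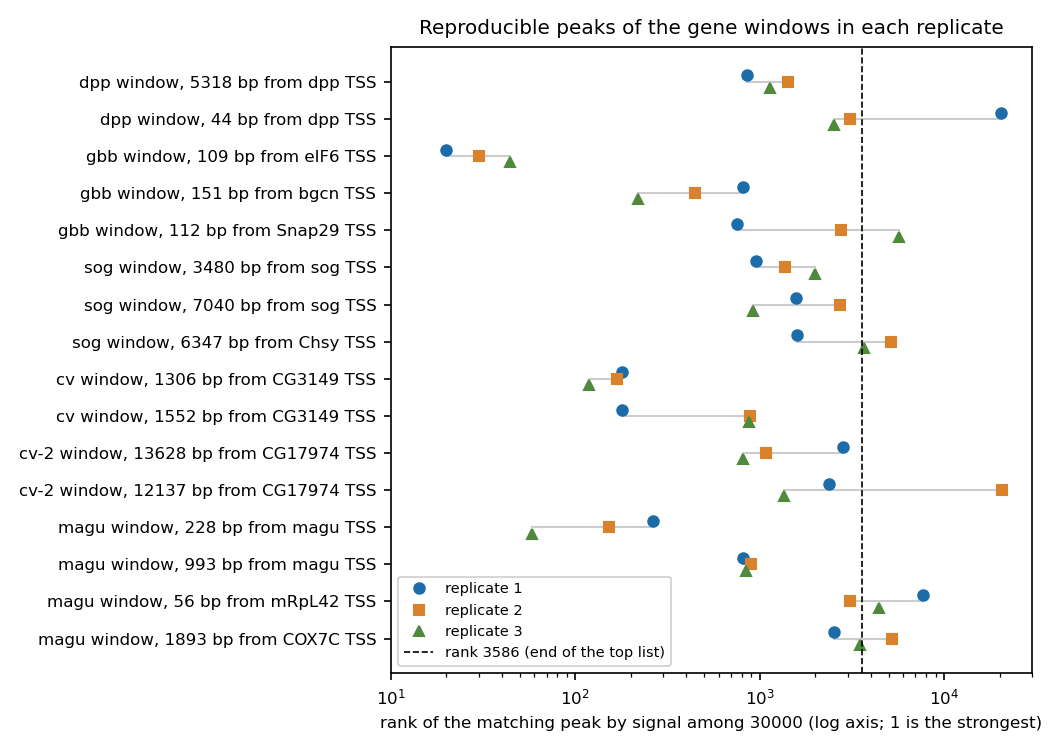
Rank of the matching peak in each replicate for the 16 reproducible peaks, on a log axis where 1 is the strongest of 30000, grouped by gene window and labelled with the nearest TSS. The dashed line marks rank 3586, the end of the top list. The dpp promoter peak lies right of the line in replicate 1 (rank 20358) and a cv-2 peak in replicate 2 (rank 20722), while the strongest peaks of the gbb, cv and magu windows stay left of it in every replicate.

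The windows were compared with the rest of the genome over replicates, as the number of top-list summits per 100 kb. In replicates 1, 2 and 3 the 10 windows, 309 kb in all, held 17, 13 and 16 top-list summits, or 5.51, 4.21 and 5.18 per 100 kb, while the rest of the arms held 2.67 in each. The ratio was 2.06, 1.57 and 1.94, with a mean of 1.86 ± 0.253 (SD, n = 3). It was above 1 in 3 of 3 replicates (two-sided exact sign-flip permutation test, p = 0.25, the smallest that 3 replicates allow). The replicates share the same windows, and the genes were chosen with earlier results of these data known. The test therefore speaks only to agreement between replicates, and whether other sets of genes differ was not tested. On the log2 scale the mean ratio was 0.88 ± 0.20 (SD, n = 3), and it was 0.74 beside the windows of all coding genes, which cover 88.6% of the arms. Counted in the gene spans alone it was 1.51, a ratio of 2.85. All of these summits lay in the windows of the 6 genes with a reproducible peak, and scw, tsg, tld and srw had 0 top-list summits in every replicate.

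**Figure D3:**
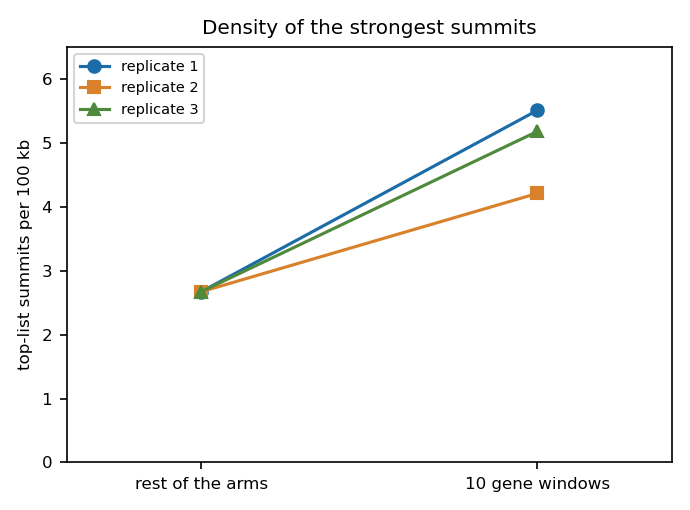
Top-list summits per 100 kb in the rest of the arms and in the 10 gene windows, 1 line for each replicate. The windows lie at 5.51, 4.21 and 5.18 in replicates 1, 2 and 3, and the rest of the arms at 2.67 in each.

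Over all 30000 listed regions the windows differed from one another and between replicates. The magu window held 25.7, 54.5 and 73.8 summits per 100 kb in replicates 1, 2 and 3, and the gbb window 23.1, 50.7 and 78.4, where the rest of the arms held 22.4. The scw window held 13.9, 4.63 and 0.00, below the rest of the arms in all 3 replicates. The tsg window held 38.3 in replicate 1 but 4.79 and 0.00 in replicates 2 and 3, and the tld window 33.6 beside 12.6 and 12.6. Replicate 1, which had the fewest regions past a −log10 q of 2, gave scw, tsg and tld their highest values and gbb, sog, cv, cv-2, magu and srw their lowest. The part of list strength in these differences was not tested.

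**Figure D4:**
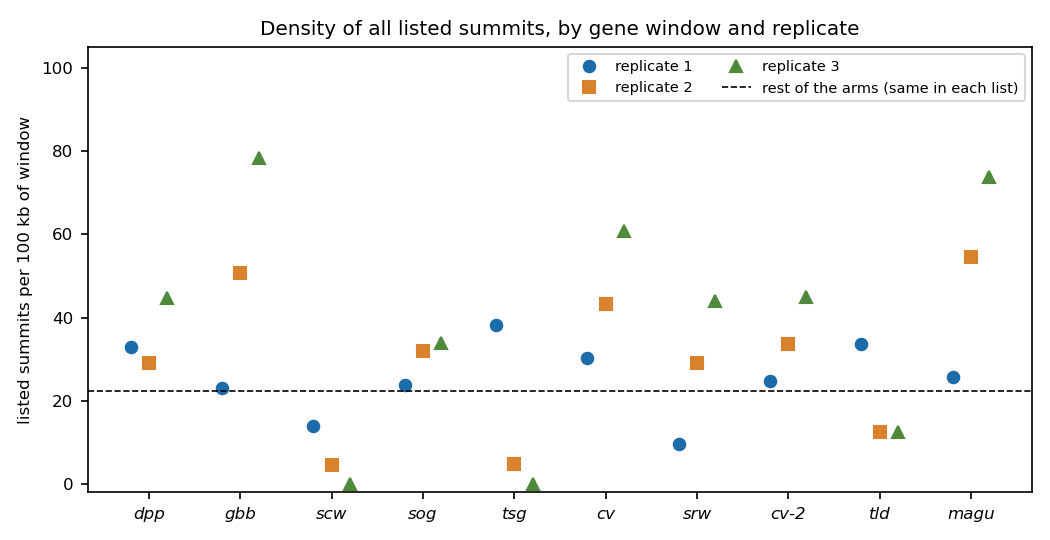
Summits per 100 kb among all 30000 listed regions, by gene window and replicate, with the dashed line at 22.4 for the rest of the arms. Replicate 3 is highest at dpp, gbb, sog, cv, srw, cv-2 and magu, and replicate 1 is highest at scw, tsg and tld.

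Motif matches were counted around the 16 summits. Within 100 bp, the Mad site GCCGNC, a GC-rich sequence bound by Mad, was at 1 of 16 peaks, the cv peak printed above, against 16.1% of all reproducible peaks. Within 50 bp it was at 0 of 16, against 7.64%, and within 250 bp at 11 of 16, against 43.7%. In that wider window the sog peak printed above and the weaker cv-2 peak had 4 matches each, and the windows of the cv pair overlap. The Zelda site CAGGTA, bound by a factor that opens early embryonic chromatin, was at 3 of 16, in dpp, magu and sog, against 4.24%. The GAGA motif GAGAG was at 4 of 16, with 5 overlapping matches at the dpp promoter peak, against 24.4%. The DRE (TATCGATA), a promoter element, was at 0 of 16, against 5.19%. The silencer element known to bind Mad and Medea with Schnurri, and the activating element known for Mad, were at 0 of 16, and at 5 and 12 of all 3586 peaks. No match within the window says only that these letters were not found there.

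Other genes of the pathway, from a list written for this comparison, gave the following counts of a reproducible summit within 1 kb of a TSS, beside the 21.1% of all genes. Of 13 other ligands and extracellular modulators it was found at 2, nord and dlp, and the activin-type ligand genes daw, mav, myo and Actbeta and the protease gene tok had none there. The nord summit lay 311 bp upstream of the TSS with rank 768 and was in all 3 top lists. The dlp summit, at a gene for a cell surface glypican, lay 143 bp upstream with rank 3219 and was in 2. Of 5 receptors it was found at babo and wit, at ranks 2806 and 2943, and not at tkv, sax or put. Of 6 Smads and cofactors it was found at Mad, Smox, brk and the tagged gene shn, and Mad, the Smad that carries the BMP signal, had rank 236 with a summit 679 bp upstream. The Mad and brk summits were in all 3 top lists. Those of Smox and shn were in 2, and the shn peak had no match in replicate 1. In the window of 10 kb a reproducible summit was found at 7 of the 13 other ligands and modulators, 5 of the 5 receptors and 6 of the 6 Smads and cofactors, beside the 57.7% of all genes. By pooled signal, the magu peak at rank 110 ranked above that of Mad and below that of brk at rank 55. In replicates 1, 2 and 3 the magu peak ranked 265, 153 and 58, and the brk peak 1731, 61 and 12. The order of magu and brk was thus reversed in replicate 1, while magu ranked above Mad in each replicate.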

How the data were processed

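ChIP-seq peak lists of 3 biological replicates, numbered as in the labels, were used on dm6. Per the notes deposited with the lists, each replicate list and the pooled list hold peaks and background kept for IDR, called against a control, and the reproducible list holds the optimal IDR-thresholded peaks. The signal value and the −log10 q value of each peak are the authors' own, as deposited. The IDR threshold and the tools for alignment and peak calling were not given in the sources used here. Lists on dm3 were not used. Sonication gave fragments of 200 to 800 bp, per the labels, so summits near each other may not be resolved.

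Genes and TSSs came from Ensembl release 115 (BDGP 6.54) on 6 arms, and sequence from RefSeq Release 6. All peaks lay within its arm lengths. Peaks matched when they overlapped by at least 1 bp, taking the nearest summit for the rank. Python 3.11.15, pandas 2.3.3 and numpy 2.4.6 were used, and the counting steps were tested on simulated data. The density ratio was tested by an exact sign-flip permutation test over replicates. Other results are counts beside the share over all genes or peaks, since genes and peaks are not replicates and depth is unknown. All 10 genes were named by rule, each with its strongest peak and every reproducible peak at its own TSS. Sequence was printed for the strongest peak of 6 genes. Genes, lists, motifs and alternatives were chosen with earlier results of these data known.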

Additional observations from a re-analysis of the deposited data

How the results depend on the processing

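The count of 6 genes with a reproducible peak in the window (57.7% of all genes) was 6 with a 5 kb flank (44.0%), when peaks below the median signal were dropped (39.3%) and with any overlap of peak and window (58.1%). It was 6 without replicate 1, 2 or 3 (46.8%, 42.2% and 47.1%), 4 with no flank (10.4%) and 7 with a 20 kb flank (73.4%). The count thus changed with no flank and with a 20 kb flank. In the runs where it stayed at 6, the share over all genes ranged from 39.3% to 58.1%. In no run with a replicate left out was the reproducible list, which the authors drew from all 3 replicates, drawn again. Such runs therefore do not show what that list would be without a replicate. The count of 2 genes with a peak at their own TSS was 4 with a 5 kb distance (38.2% of all genes), where gbb and sog joined, and 1 when peaks below the median signal were dropped (11.9%), where magu remained. It ranged from 1 to 2 when each replicate was left out, at 2 without replicate 1 (15.3%) and at 1, with dpp lost, without replicate 2 (13.3%) and without replicate 3 (15.7%). The number of peaks in all top lists was 6 of 16 with an overlap of at least 50% of both peaks (40.7% of all peaks). With no flank it was 6 of 8, beside 53.8% of all peaks. It ranged from 11 to 12 of 16 over the other replicates when 1 was left out. For those runs, where fewer lists must be met, the share over all peaks was not counted. The number of peaks with a Mad site was 0 within 50 bp and 11 within 250 bp. The cause of these moves was not tested. The log2 density ratio was above 0 in every alternative run, from 0.52 with all listed regions to 1.51 with no flank. Its comparison with the windows of all coding genes, 0.74, was added after the data were seen. No paired analysis was possible because the replicates form a single group. The genes scw, tsg, tld and srw had regions in the pooled list, which includes background, but no reproducible peak. Without read counts, the lists cannot show whether these genes lack binding or fall below what was detectable.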
